A study of Mus musculus with 45 samples.

Results

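The genes described here are 7 transcripts of major histocompatibility complex (MHC) class II presentation, chosen by name as H2-Aa, H2-Ab1, H2-Eb1, Cd74, Ciita, H2-DMa and H2-DMb1. They were 7 of 47729 genes in the deposited tables and 7 of the 14020 genes abundant enough to be tested, and none of them was lost to that filter. Bulk RNA sequencing was available for 45 libraries, each from the small intestine of 1 male C57BL/6J mouse that arrived at an age of 5 weeks and was housed at 30 °C. The mice received a reference diet (RFD, 10% fat) or a high fat diet (HFD, 60% fat), in a short feeding set (STF) with 11 RFD and 11 HFD libraries and a long feeding set (LTF) with 11 RFD and 12 HFD libraries. The methods give 9 weeks of feeding for STF and 22 weeks for LTF, whereas the sample labels read 9 weeks in both sets. The labels give the sorted cells as EpCAM+CD45+ Siglec-F+, a gate meant to enrich tuft cells, rare chemosensory cells of the gut epithelium, whereas another passage of the methods says that cells with CD45 were kept out. Which gate held for CD45, and so whether it would remove leukocytes, cannot be told from these sources. No transgene, deletion or drug is named for any group.

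Class II molecules are pairs of an alpha and a beta chain that carry peptides from the endosome to the cell surface, where CD4 T cells read them. H2-Aa and H2-Ab1 encode the alpha and beta chains of the I-A molecule, and H2-Eb1 encodes the beta chain of I-E, whose alpha chain is not made in C57BL/6 mice. Cd74, the invariant chain, blocks the groove of a new pair until it is degraded, and H2-DM, made of H2-DMa and a beta chain such as H2-DMb1, then exchanges the last fragment for peptide. Ciita, the class II transactivator, binds no DNA itself but is recruited to a conserved promoter module by RFX and NF-Y factors. Dendritic cells, macrophages and B cells make class II steadily, and gut epithelial cells make it under interferon gamma.

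Of the members, 5 lie within the MHC on chromosome 17 of the GRCm38 build. On the plus strand, H2-DMa (ENSMUSG00000037649) spans chr17:34119541-34139101, H2-DMb1 (ENSMUSG00000079547) chr17:34153072-34160230, H2-Ab1 (ENSMUSG00000073421) chr17:34257689-34269419 and H2-Eb1 (ENSMUSG00000060586) chr17:34305867-34316674. H2-Aa (ENSMUSG00000036594) spans chr17:34282744-34287823 on the minus strand. Ciita (ENSMUSG00000022504) lies on chromosome 16, and Cd74 (ENSMUSG00000024610) also lies outside chromosome 17. Similar class II genes such as H2-DMb1 and H2-DMb2 can share reads, so the split of reads between such copies is uncertain.

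The promoter module on which Ciita acts is shown for the members whose promoters held its letters. RefSeq promoters of GRCm38.p6, each of 300 bases, were found for 4 of the 7 members. They were searched on both strands for GNAAC, letters found in the X box, followed after 24 to 32 bases by ATTGG, the Y box that NF-Y recognises. The 3 members that held the pair are printed with 12 bases on either side and with the letters of both motifs in capitals. The windows are chr17:34287855-34287916 on the minus strand for H2-Aa, chr17:34305764-34305824 on the plus strand for H2-Eb1 and chr17:34153085-34153146 on the plus strand for H2-DMb1.
H2-Aa: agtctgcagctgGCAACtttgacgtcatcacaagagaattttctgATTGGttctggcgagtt
H2-Eb1: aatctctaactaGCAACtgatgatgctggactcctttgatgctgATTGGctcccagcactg
H2-DMb1: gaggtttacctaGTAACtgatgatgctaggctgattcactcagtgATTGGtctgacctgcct

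The first motif began 81, 91 and 94 bases before the RefSeq start of H2-Aa, H2-Eb1 and H2-DMb1, and 28, 27 and 28 bases separated it from the second. The RefSeq start of H2-DMb1 lies inside the gene span given above, so its motifs do too. H2-Eb1 and H2-DMb1 shared a run of 13 bases, aactgatgatgct, that takes in the end of the first motif, whereas H2-Aa shared no run longer than 8 bases with either. Neither of the 2 H2-DMa promoters held the pair. Among all 32817 promoters the pair stood on the strand of the gene in 0.74% and on either strand in 1.54%, while GNAAC alone was in 84.9% and ATTGG alone in 37.4%. The spacing was set after these promoters had been read, so the matches describe the letters and are not sites.

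The libraries held between 189340 and 4690213 reads on genes. No 2 libraries had identical counts, since every pair differed in at least 12898 genes, and agreement within sampling noise was not tested. Tuft markers were present in all 45 libraries, with group medians of 7007.2 (STF RFD), 3141.7 (STF HFD), 8939.4 (LTF RFD) and 7250.5 (LTF HFD) TPM (transcript abundance corrected for gene length and depth) summed over 11 markers, and as little as 39.9 TPM in 1 STF HFD library. Enterocyte markers, also 11, summed to more than the tuft markers in the median of every group (18061.8 to 38876.1 TPM), so these are mixtures of cell types. Enrichment of tuft cells was not measured, since no unsorted library was used. Paneth cell markers, 5 genes, had medians of 10110.8 (STF RFD), 73577.7 (STF HFD), 3264.4 (LTF RFD) and 35436.0 TPM (LTF HFD), with log2 fold changes of 2.09 to 2.67 in STF and 0.68 to 1.56 in LTF of which 0 passed by edgeR or reached an unadjusted p under 0.05. Stem cell markers, 4 genes, had medians of 167.5 (STF RFD) and 660.3 TPM (STF HFD), their LTF median was also higher on HFD, and 1 of them, Olfm4, was higher on HFD in the STF set (2.05, SE 0.59, edgeR adjusted p = 0.0848). Their part in the diet values of the members was not tested. Leukocyte markers were present too. Mononuclear phagocyte markers (14 genes of macrophages and dendritic cells) had group medians of 5.20 to 31.1 TPM, and 1 library stood apart: LTF HFD mouse 31 held 2462.3 TPM, against 15.7 TPM in the next LTF HFD library. The LTF diet estimates of the members are given with and without that library, and other LTF values include it unless stated. In bulk libraries, fewer cells of a type and less RNA per cell cannot be told apart.

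The members formed an ordered series of levels that spanned more than 2 orders of magnitude. By median TPM over the 45 libraries, Cd74 (205.6) stood above H2-Ab1 (78.1), H2-Aa (31.7), H2-Eb1 (25.6), H2-DMa (12.2), H2-DMb1 (8.13) and Ciita (0.74). Cd74 exceeded H2-Ab1 in 44 of 45 libraries and H2-Ab1 exceeded H2-Aa in 42, whereas H2-Aa exceeded H2-Eb1 in 32 and H2-DMa exceeded H2-DMb1 in 30, so neighbours of those last pairs were often in the other order. The chaperone was thus above the chains it binds, the chains above the exchange factor, and the transactivator at the bottom. Ciita had under 3 reads in 16 libraries and had no read in 10, and its values carry the most counting error.

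Levels of the same gene spread widely between mice of the same diet. Cd74 ran from 29.6 through a median of 338.3 to 1049.8 TPM in STF RFD, and from 4.98 through 84.99 to 933.7 TPM in STF HFD. Its LTF values ran from 24.6 through 301.5 to 1087.6 TPM on RFD and from 7.33 through 106.7 to 3042.2 TPM on HFD. The groups overlapped almost wholly in both sets, although 8 of 11 STF HFD and 9 of 12 LTF HFD libraries lay below the RFD median of their set. Among libraries with at least 3 reads, the highest Cd74 level in TPM was 610.9 times the lowest. TPM share a fixed total, of which Paneth markers held up to 383890.6 TPM in STF HFD (mouse 80), so TPM of other genes depend on them. In CPM (reads scaled to equal library size) the Cd74 medians were 399.0 in STF RFD and 129.2 in STF HFD. In the LTF set they were 321.8 on RFD and 119.6 on HFD.

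H2-Aa ran from 0 through 50.9 to 286.9 TPM in STF RFD and from 0 through 12.9 to 460.2 TPM in STF HFD. On LTF RFD it ran from 5.23 through 70.9 to 311.2 TPM and on LTF HFD from 2.63 through 14.9 to 1433.9 TPM. The HFD medians were lower in both sets while the highest HFD libraries lay above every RFD library. H2-Ab1, its partner chain, ran from 0 through 60.5 to 580.8 TPM in STF RFD and from 4.15 through 25.7 to 645.4 TPM in STF HFD. LTF values of H2-Ab1 ran from 25.9 through 127.1 to 1023.6 TPM on RFD and from 4.64 through 54.0 to 2792.7 TPM on HFD. Both chains of I-A therefore had the same layout, a low majority and a few very high mice in each HFD group.

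H2-Eb1 ran from 0 through 25.6 to 198.0 TPM in STF RFD and from 2.48 through 9.91 to 244.6 TPM in STF HFD. It ran from 4.91 through 60.8 to 175.2 TPM in LTF RFD and from 1.40 through 11.9 to 1090.2 TPM in LTF HFD. The exchange factor genes were lower, with group medians of 5.53 to 20.5 TPM for H2-DMa and 4.69 to 18.4 TPM for H2-DMb1. Their highest values were again on HFD in the LTF set, at 97.0 and 128.4 TPM. Ciita had group medians of 0.37 to 0.90 TPM and a highest value of 7.17 TPM. For every member the highest STF HFD library was mouse 60 and the highest LTF HFD library was mouse 31, and mouse 65 was second in LTF HFD for every member.

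**Figure D1:**
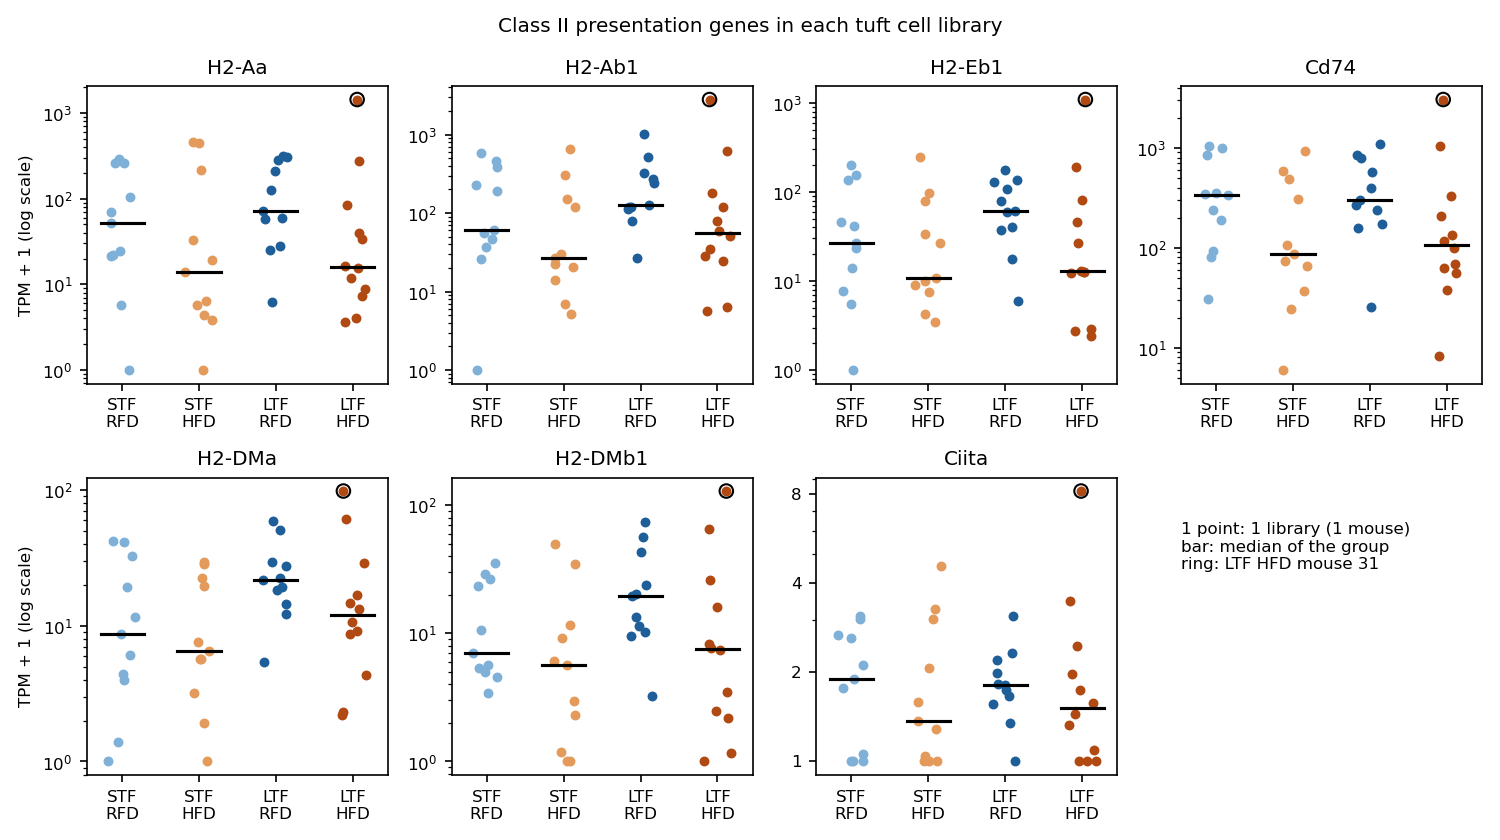
TPM + 1 on a log scale (y axis) of each member in the 4 groups (x axis), with 1 point per library, a bar at the group median and a ring around LTF HFD mouse 31. The HFD medians lie below the RFD medians of the same set for all 7 genes, the groups overlap, and the ringed library is the highest in every panel.

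No member passed the test of HFD against RFD in the STF set. By the quasi-likelihood test of edgeR, adjusted by Benjamini-Hochberg over 14020 genes, 466 genes (3.32%) had an adjusted p under 0.1 and 0 of the 7 members did. None of the members reached an unadjusted p under 0.05 with edgeR, DESeq2 or limma, against 2523 of all genes with edgeR. Cd74 had a log2 fold change of -0.92 (SE 0.67, 95% interval -2.31 to 0.47, adjusted p = 0.49) and H2-Ab1 of -0.70 (SE 0.79, -2.35 to 0.95, adjusted p = 0.69). H2-Aa had -0.07 (SE 0.99, -2.14 to 2, adjusted p = 0.983) and H2-Eb1 -0.39 (SE 0.74, -1.93 to 1.14, adjusted p = 0.834). The remaining values were -0.55 for H2-DMa, -0.40 for H2-DMb1 and -0.03 for Ciita, with adjusted p from 0.688 to 0.992. All 7 values were below 0 with a median of -0.40, beside a median of -0.05 over all genes. The intervals include changes of more than 4-fold downwards for Cd74, H2-Ab1 and H2-Aa. All of them also reach above 0, up to 2 for H2-Aa and 1.82 for Ciita. The p-values set each difference against the spread between mice. Mice shared cages, which the fits do not model, so each mouse was taken as independent.

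In the LTF set too, 0 of 7 members passed, with 111 of all genes called (0.792%). Cd74 had a log2 fold change of -0.19 (SE 0.75, 95% interval -1.76 to 1.37, edgeR adjusted p = 0.957) and H2-Ab1 of 0.16 (SE 0.86, -1.63 to 1.95, adjusted p = 0.97). H2-Aa had 0.04 (SE 0.94, -1.91 to 1.99, adjusted p = 0.993) and H2-Eb1 0.49 (SE 0.90, -1.38 to 2.35, adjusted p = 0.904). H2-DMa, H2-DMb1 and Ciita had -0.30, -0.34 and 0.22, with adjusted p from 0.887 to 0.95. The values lay on both sides of 0, 3 below and 4 above, with a median of 0.04 beside -0.03 over all genes. Unadjusted p-values under 0.05 were found for 0 members with edgeR and limma and for 1 with DESeq2, which gave H2-Ab1 a log2 fold change of -1.36 (p = 0.0273, adjusted p = 0.259). DESeq2 also gave H2-Eb1 -1.17, but it gave H2-Aa 0.07 and Cd74 -0.17, near the edgeR values. DESeq2 was run with its default handling of outlying counts, whose part in these values was not tested. With HFD mouse 31 left out, edgeR gave H2-Ab1 -1.46.

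The LTF estimates turned on mouse 31. Without it, all 7 members were below 0 with a median log2 fold change of -1.34, and 4 of them had an unadjusted p under 0.05 by edgeR: H2-Aa at -1.84 (adjusted p = 0.404), H2-Ab1 at -1.46 (adjusted p = 0.479), Cd74 at -1.35 (adjusted p = 0.479) and H2-DMa at -0.93 (adjusted p = 0.481). H2-Eb1 stood at -1.34, H2-DMb1 at -1.26 and Ciita at -0.69. None passed after adjustment. Without STF HFD mouse 60 the STF median moved from -0.40 to -1.18, with H2-Ab1 at -1.63 and Cd74 at -1.46, and again 0 of 7 passed (lowest adjusted p = 0.241). Without STF RFD mouse 24, which had the highest STF RFD level of H2-Aa, H2-Ab1, H2-Eb1 and Cd74, the STF median was -0.22 and 4 of 7 members were below 0. Leaving out single mice turned the sign of H2-Aa, H2-Eb1 and Ciita in both sets and of H2-Ab1 in the LTF set, whereas Cd74, H2-DMa and H2-DMb1 in both sets and H2-Ab1 in the STF set stayed below 0 in every such fit. No member was called with any single mouse left out. Mice 31 and 60 had the highest HFD levels of every member in their sets, so leaving either out lowers the HFD side by construction.

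**Figure D2:**
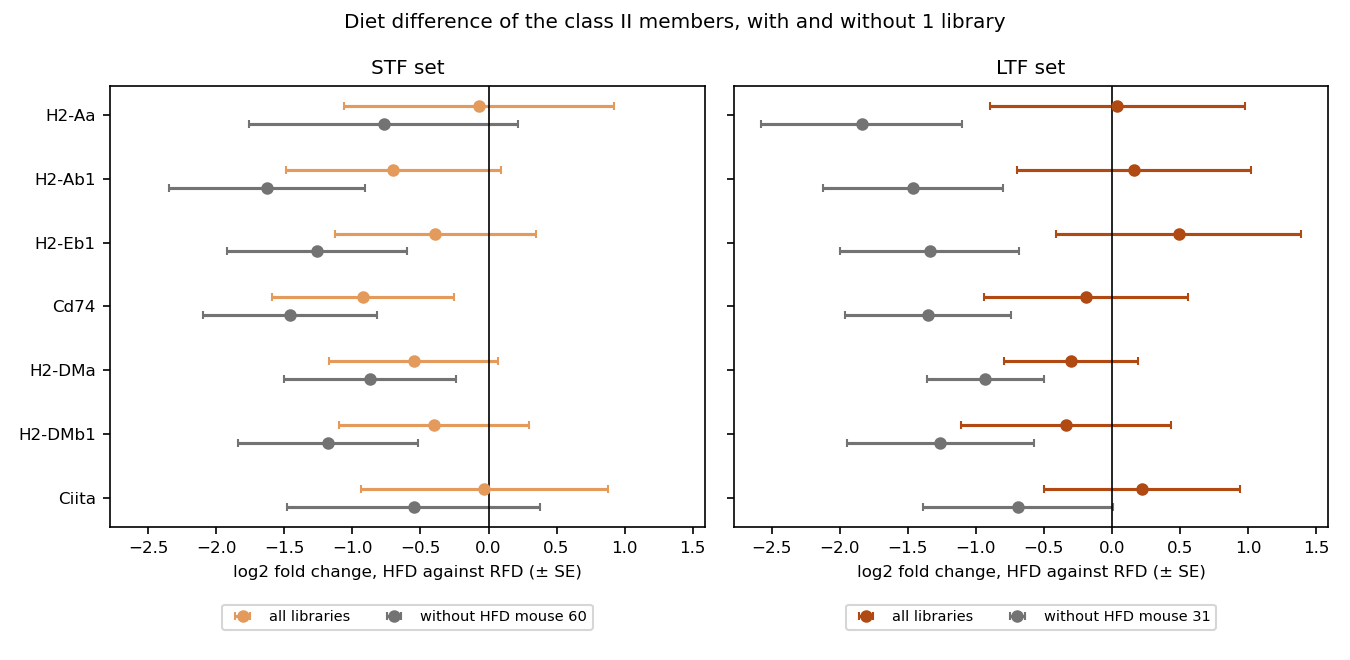
Log2 fold change of HFD against RFD (x axis, ± SE from edgeR) for each member (y axis) in the STF and LTF sets, with all libraries in colour and without the HFD library with the highest levels in grey. In the LTF set the values move from between -0.34 and 0.49 to between -1.84 and -0.69 when mouse 31 is left out.

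The mice are numbered in 3 ranges in each set (1 to 8, round numbers from 10 to 80, and 21 to 34 or 62 to 64), whose meaning the labels do not give, and 2 libraries lie outside them, STF RFD mouse 84 and LTF HFD mouse 65. The methods place 4 mice in a cage and spread termination over 3 days, with a cage of every group on each day, but the sources used here do not tie mouse numbers to cages or days. In the LTF set the mean log2(CPM + 1) of Cd74, where CPM stands for reads scaled to equal library size, differed between HFD and RFD by -2.99 in the first range (4 HFD and 4 RFD mice) and by -1.96 in the second (3 and 3). In the third range (4 and 4) it differed by 0.36, and by -1.02 when mouse 31 was left out. H2-Ab1 differed by -3.51, -1.93 and 0.36 in the same ranges, and by -1.21 in the third without mouse 31. H2-Aa differed by -3.31, -2.86 and 0.26, and by -1.48 without mouse 31. For these 3 genes the HFD mean was lower in every range without that mouse, with mouse 65, the second highest LTF HFD library, in no range. Mouse 31 had the highest LTF HFD level of every member, so leaving it out lowers the HFD mean by construction. In the STF set the differences of H2-Ab1 were -1.16, 1.39 and -1.90 and those of Cd74 -0.53, -1.82 and -1.13, so the ranges differed in sign for H2-Ab1.

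The diet differences of the sets were compared directly. The interaction of diet and set was between 0.10 and 0.94 for the members, with p from 0.432 to 0.926 and adjusted p of 1 throughout, and 0 of all genes (0%) were called, with 451 genes and 0 members at an unadjusted p under 0.05 by edgeR, and 1 gene and 0 members called by DESeq2. Between the sets on the same diet, the members differed by -0.38 to 0.58 on RFD (LTF against STF, adjusted p of at least 0.887) and by -0.06 to 1.07 on HFD (adjusted p of at least 0.561). No member passed in either comparison or had an unadjusted p under 0.05 with edgeR or DESeq2, beside 1.46% and 5.78% of all genes called. Feeding time, age and set cannot be told apart in these comparisons. LTF HFD mouse 31 was kept in the interaction fits and in the values on HFD given here, and its part in them was not tested.

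The class II transcripts moved with the phagocyte markers from mouse to mouse in the STF set. On log2(CPM + 1) values of the 22 STF libraries, Spearman's rho with the mean of the phagocyte markers was 0.438 to 0.808 over the members, and 6 of 7 passed an adjusted p under 0.1 (permutation test, two-sided, 100000 resamples, adjusted over 70 pairs of member, marker list and set). Cd74 had the highest rho (0.808, adjusted p = 0.00105; Pearson's r = 0.792, adjusted p = 0.00035, permutation test), and H2-DMb1 the lowest. Without the 2 libraries farthest from the median of the marker axis (HFD mouse 60 and RFD mouse 24), r for Cd74 was 0.735. Within diets, rho for Cd74 was 0.873 on RFD and 0.709 on HFD (11 libraries each), and over the members it was 0.509 to 0.873 and 0.301 to 0.709. Within the 3 number ranges (7 libraries each) rho for Cd74 was 0.857, 0.643 and 0.821, with H2-DMa at 0.143 in the second range and H2-DMb1 at 0.393 in the second and in the third. The relation did not hold when the 8 STF libraries with more than 50 TPM of phagocyte markers were set aside: over the other 14, rho was -0.246 to 0.400 and 0 of 7 members passed by rho or r. It therefore rests on the difference between those 8 libraries and the rest.

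B cell markers gave a similar picture in the STF set, with rho from 0.467 to 0.807 and 5 of 7 members past the adjusted threshold by the permutation test, although only 2 of the 9 B cell genes, Cd79b and Jchain, were abundant enough to enter the score. Without the 2 farthest libraries (HFD mice 5 and 60), r was 0.303 to 0.741. Without the 8 phagocyte-rich libraries 0 of 7 passed, although rho stayed above 0 for all 7 members (0.146 to 0.524), with r of -0.074 to 0.374. T cell markers, which mark cells that make no class II in the mouse, gave rho of 0.079 to 0.415, tuft markers -0.091 to 0.300 and enterocyte markers 0.022 to 0.304, and no member passed for any of these lists in the STF set. On log2(TPM + 1) values, however, 2 members passed by rho with T cell markers and 1 with enterocyte markers in that set, and by r 1 with T cell, 5 with enterocyte and 4 with tuft markers. The differences between these correlations were not tested.

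Over the LTF libraries no member passed by rho for any of the 5 lists, although 3 did with T cell markers on log2(TPM + 1) values. With phagocyte markers rho was 0.180 to 0.403 over the 23 libraries. By Pearson's r all 7 members passed (0.430 to 0.573, permutation test), but r was 0.114 to 0.316 without the 2 farthest libraries, HFD mouse 31 and RFD mouse 21, so that relation rests on those libraries. T cell markers gave r of 0.331 to 0.576, with 6 of 7 members passing, and 0.231 to 0.416 without RFD mouse 10 and HFD mouse 31. Within LTF RFD, r between phagocyte markers and the members was -0.382 to 0.185, and within LTF HFD 0.640 to 0.753 with mouse 31 and 0.257 to 0.573 without it. A test of the difference between the STF and LTF correlations was not made.

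**Figure D3:**
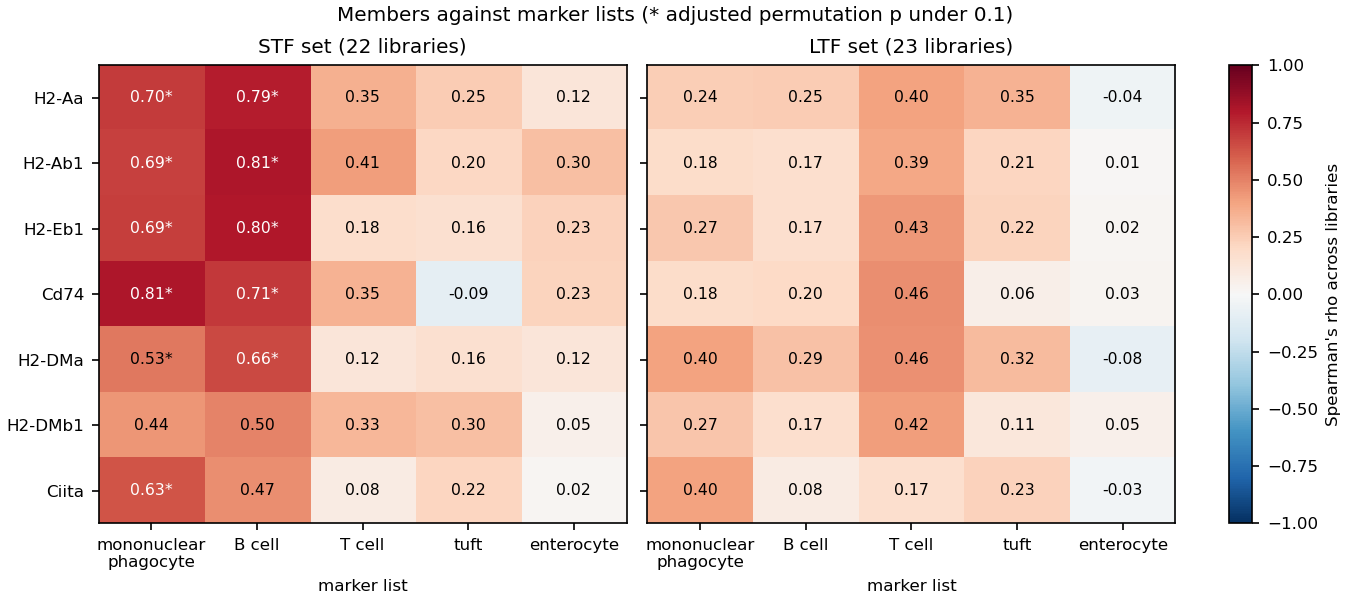
Spearman's rho across libraries between each member (rows) and the mean of each marker list (columns), in the STF set (22 libraries) and the LTF set (23 libraries), with an asterisk where the adjusted permutation p is under 0.1. Asterisks fall on 6 phagocyte and 5 B cell pairs of the STF set and on no pair of the LTF set.

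Libraries with much class II RNA differed in their phagocyte markers. In some, phagocyte markers were abundant as well. LTF HFD mouse 31 held 6272 Cd74 reads and 5741 reads on the phagocyte markers, with all 14 markers and all 12 T cell markers detected. STF HFD mouse 60 held 1997 Cd74 reads and 1563 phagocyte reads, with 13 of 14 markers detected. LTF RFD mice 3 and 4 had Cd74 at 1087.6 and 854.4 TPM with phagocyte markers at 22.9 and 24.4 TPM. Their libraries were the shallowest of LTF RFD, with 927740 and 829184 reads on genes. Mouse 3 had no Ciita read, and mouse 4 held 82.9 TPM of T cell markers. Phagocyte reads were few in LTF RFD mouse 30, which held 1677 Cd74 reads (784.4 TPM) and 16 reads on the phagocyte markers, of which 9 of 14 had no read, among them C1qa, C1qb, C1qc, Csf1r, Cd68, Flt3 and Itgax.

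B cell and T cell markers were few in that mouse too. It had 5 reads on the B cell markers, with Cd79a, Cd79b and Ms4a1 at 0, and 8 reads on the T cell markers, while its tuft markers summed to 9853.9 TPM. Its eosinophil markers, a list of 5 genes, had 10 reads and summed to 3.10 TPM, above the LTF RFD median of 1.46 TPM. Its H2-Aa level (311.2 TPM) was the highest of the LTF RFD group and 585 reads lay behind it, and its Ciita level (2.10 TPM) was the highest of that group as well. LTF HFD mouse 65 had 702 Cd74 reads (1038.8 TPM), 13 phagocyte reads, 16 B cell reads and 3 T cell reads, and its phagocyte level of 6.83 TPM was close to the LTF HFD median of 6.90 TPM. Its eosinophil markers summed to 10.16 TPM, the highest of LTF HFD. Its library was the shallowest of the LTF set, with 661598 reads on genes, against 2104505 for LTF RFD mouse 30 and 3600000 for STF HFD mouse 62. The part of depth in these read counts was not tested. STF HFD mouse 62 held 1287 Cd74 reads with 20 phagocyte reads, and its Cd74 level (305.8 TPM) was below the STF RFD median. These 3 mice were picked for this contrast after their values were seen, and the source of their class II RNA was not tested.

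Grouped by phagocyte markers, the 8 STF libraries with at most 5 TPM (5 on HFD) had Cd74 from 29.6 through 75.8 to 305.8 TPM, and the 8 with more than 50 TPM (3 on HFD) from 340.9 through 710.6 to 1049.8 TPM, with no overlap. The 6 STF libraries in between (3 on HFD) ran from 4.98 through 88.7 to 338.3 TPM. The 8 LTF libraries with at most 5 TPM (5 on HFD) had Cd74 from 7.33 through 88.4 to 784.4 TPM. The 13 LTF libraries between 5 and 50 TPM (6 on HFD) ran from 24.6 through 266.6 to 1087.6 TPM and overlapped them widely. Of the 2 LTF libraries above 50 TPM, RFD mouse 21 had 171.1 TPM of Cd74 at 97.3 TPM of phagocyte markers. H2-Aa reached 31.7 TPM in the phagocyte-poor STF libraries and 311.2 TPM in the LTF ones. LTF RFD mouse 30 gave the highest value of both genes among the phagocyte-poor LTF libraries, and the difference between the sets was not tested.

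**Figure D4:**
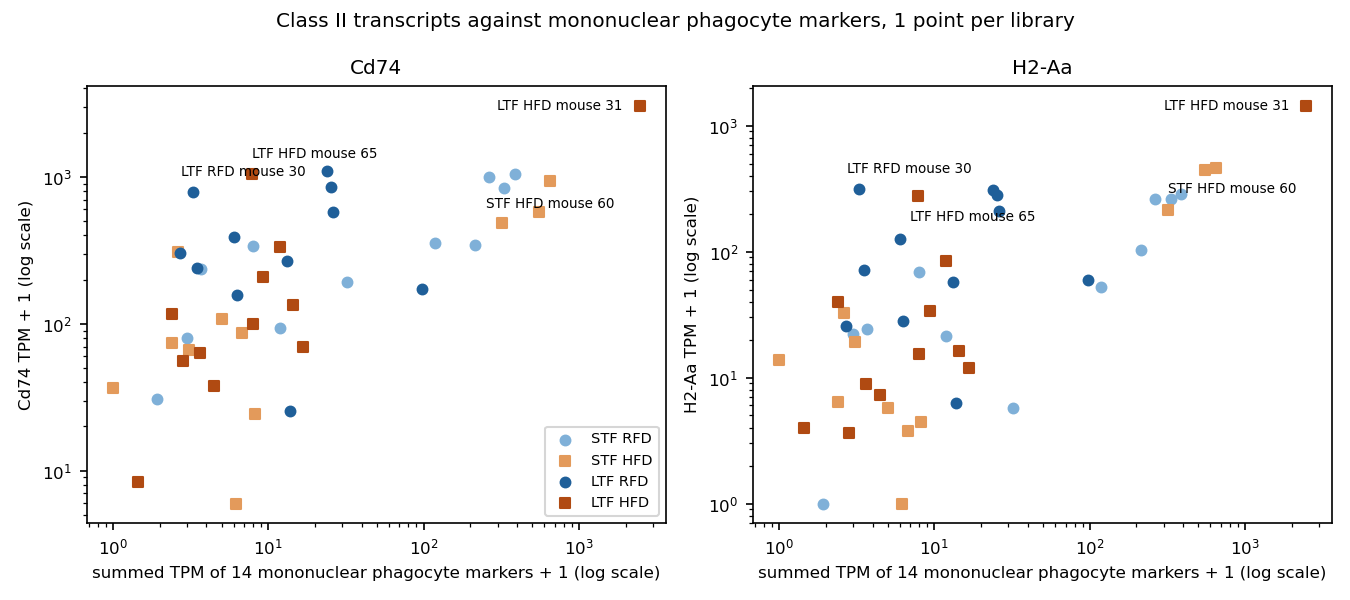
TPM + 1 of Cd74 (left) and H2-Aa (right) against the summed TPM + 1 of 14 mononuclear phagocyte markers, both axes on a log scale, with 1 point per library and the group given by colour and shape. The STF libraries with over 50 TPM of phagocyte markers have the highest STF levels of Cd74, while LTF RFD mouse 30 and LTF HFD mouse 65 reach 784.4 and 1038.8 TPM of Cd74 at 2.29 and 6.83 TPM of phagocyte markers.

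The diet test called 0 of 7 members with the phagocyte-rich libraries set aside, too. With the 2 LTF libraries over 50 TPM of phagocyte markers left out (HFD mouse 31 and RFD mouse 21), all 7 members were below 0 with a median log2 fold change of -1.41, 5 had an unadjusted p under 0.05 by edgeR, and the lowest adjusted p was 0.454. With the 8 such STF libraries left out the median was -0.89 and no member had an unadjusted p under 0.05, beside 0 of all genes called. Over all libraries, 12 phagocyte markers were tested for diet and 0 passed by edgeR in either set. In the LTF set, mouse 31 included, 2 of them were below 0, with a median log2 fold change of 2.54. There 6 had an unadjusted p under 0.05 by edgeR. In the STF set 7 were below 0 (median -0.33) and 0 had such a p. The estimates of all 8 T cell markers tested were below 0 in both sets, with 2 at an unadjusted p under 0.05 by edgeR in each. Only Lck, a T cell kinase, passed in the STF set (-2.97, adjusted p = 0.0716, edgeR), beside 1.33% of all genes called lower there. In the LTF set 0 passed. Lck was the only T cell marker with a read in LTF RFD mouse 21, at 16 reads, so its reads can occur without the others. The summed medians of the T cell markers were 32.8 TPM in STF RFD, 4.38 in STF HFD, 17.8 in LTF RFD and 5.84 in LTF HFD. The part of these markers in the diet values of the members was not tested beyond these fits.

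The members varied together across mice. Among the 15 pairs that leave Ciita out, rho was 0.651 to 0.935 in the STF set (median 0.788) and 0.841 to 0.967 in the LTF set (median 0.948), and every pair passed by the permutation test. The 6 pairs with Ciita were looser, at 0.448 to 0.580 and 0.391 to 0.587. Over all 45 libraries, after group means were removed, the 5 genes whose log2(CPM + 1) values followed Cd74 most closely were H2-Aa (r = 0.903), H2-Eb1 (0.833), H2-DMb1 (0.812), H2-Ab1 (0.808) and H2-DMa (0.735). Ciita stood at rank 68 (0.575).

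Outside the members, the genes most like Cd74 in this measure were C6 (0.720), Vsir (0.687), Clec7a (0.672), Aif1 (0.670), Cd86 (0.668) and Cd48 (0.667), followed by C1qb, Gbp2b, Ms4a6d and Fcgr3 (0.665 to 0.650). Those most like H2-Aa were Aif1 (0.768), Gbp2b (0.760), C6 (0.760), C1qb (0.752) and Apol7c (0.742), followed by C1qa, Cd86, Cd48, Ms4a6c and Lpcat2 (0.736 to 0.730). Clec7a is a fungal pattern receptor, Cd86 a costimulatory ligand and C1qb a complement subunit of macrophages. These genes had no read in 12 to 35 of the libraries, and without LTF HFD mouse 31 the values for Cd74 were lower by at most 0.1, with C6 at 0.660 and Clec7a at 0.60, and the 10 values for H2-Aa were 0.679 to 0.729. The correlations share library depth and leukocyte content and are given as a description.

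The wider pathway gave few calls. Of 10 genes of class II processing and turnover, 0 passed in either set by edgeR, with 0 in STF and 1 in LTF at an unadjusted p under 0.05, and median log2 fold changes of 0.21 and 0.28. They include the endosomal proteases Ctss (0.27 in STF and 1.14 in LTF) and Lgmn (0.27 and 1.29), the thiol reductase Ifi30 (0.22 and -0.02) and the ubiquitin ligase March8 (-0.37 and -0.60). Of 7 promoter factors 6 were tested and 0 passed, with 1 gene in each set at an unadjusted p under 0.05: Rfx5 (-2.34, adjusted p = 0.214) in STF and Rfxank (-0.52, adjusted p = 0.478) in LTF, both subunits of the RFX complex. Of 6 costimulatory ligands 3 were tested, and none had an unadjusted p under 0.05 in either set. The class II genes H2-DMb2, H2-Oa, H2-Ob and H2-Eb2 were too low to be tested.

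Interferon gamma signalling, which induces Ciita, was represented by the receptor chains Ifngr1 (0.64 in STF and 0.32 in LTF) and Ifngr2, the kinases Jak1 and Jak2 (-0.85 and -0.38), the transcription factor Irf1 (-0.25 in both) and the inhibitor Socs1. None of these genes passed in either set by edgeR, and unadjusted p-values under 0.05 were found for Ifngr1 (p = 0.0221, adjusted p = 0.197) and Jak2 (p = 0.0131, adjusted p = 0.16), both in the STF set. Ifng itself was too low to be tested.

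Class I presentation differed from this picture in its calls. All 9 class I genes tested were below 0 in both sets, with medians of -0.91 in STF and -1.03 in LTF. In the LTF set 4 fell: H2-K1 (-1.33, SE 0.22, edgeR adjusted p = 0.00255) and H2-D1 (-1.11, SE 0.27, adjusted p = 0.0614), which encode class I heavy chains, B2m (-1.12, SE 0.21, adjusted p = 0.00823), their shared light chain, and Tap1 (-1.03, SE 0.28, adjusted p = 0.0978), a subunit of the peptide transporter. In the STF set 2 fell: H2-K1 (-1.18, SE 0.28, adjusted p = 0.0525) and the immunoproteasome subunit Psmb8 (-1.06, SE 0.29, adjusted p = 0.0662). The background shares of genes called lower were 1.33% in STF and 0.357% in LTF.

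The LTF calls of B2m and H2-K1 held in every alternative run, B2m with adjusted p from 9.1e-05 to 0.0839 and H2-K1 with at most 0.0396, and leaving out mouse 31 gave -1.23 and -1.40. The calls of H2-D1 and Tap1 were lost with T cell markers as a covariate (-0.92 and -0.87, adjusted p = 0.227 and 0.286) and with limma, and that of Tap1 without the phagocyte-rich libraries (-1.13, adjusted p = 0.105). Over the settings other than single mice left out, these 2 genes lost their calls 9 times in all, and the other losses are not listed. Leaving out single mice ended the call of H2-D1 in 7 of 23 fits (RFD 10, 24, 30 and 40, HFD 7, 8 and 32, adjusted p of 0.103 to 0.165) and that of Tap1 in 18, all but RFD 1 and 3 and HFD 31, 65 and 80 (0.111 to 0.219). Both STF calls were lost with tuft markers as a covariate (H2-K1 at -0.66, adjusted p = 0.407, and Psmb8 at -0.58, adjusted p = 0.427), with T cell markers (-1.33 and -1.21, adjusted p = 0.152 and 0.247) and without the phagocyte-rich libraries (-1.19 and -1.14, adjusted p = 0.427 and 0.429). They were lost too with limma on log2(TPM + 0.1), which called 0 of all genes lower. The remaining settings are not listed for these 2 genes. Leaving out single mice ended the STF call of H2-K1 in 5 of 22 fits (RFD 23, HFD 6, 8, 70 and 80, adjusted p of 0.103 to 0.113) and that of Psmb8 in 11 (RFD 1, 3, 21, 23, 24 and 84, HFD 6, 8, 50, 70 and 80, 0.105 to 0.136). The SEs of these class I genes were 0.17 to 0.54 in the LTF set, against 0.49 to 0.94 for the class II members. The difference between the classes was not tested. None of the class I genes whose promoters were found held the pair of motifs, whereas those of the class II genes H2-Oa, H2-Ob and H2-Eb2 did and that of H2-DMb2 did not.

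**Figure D5:**
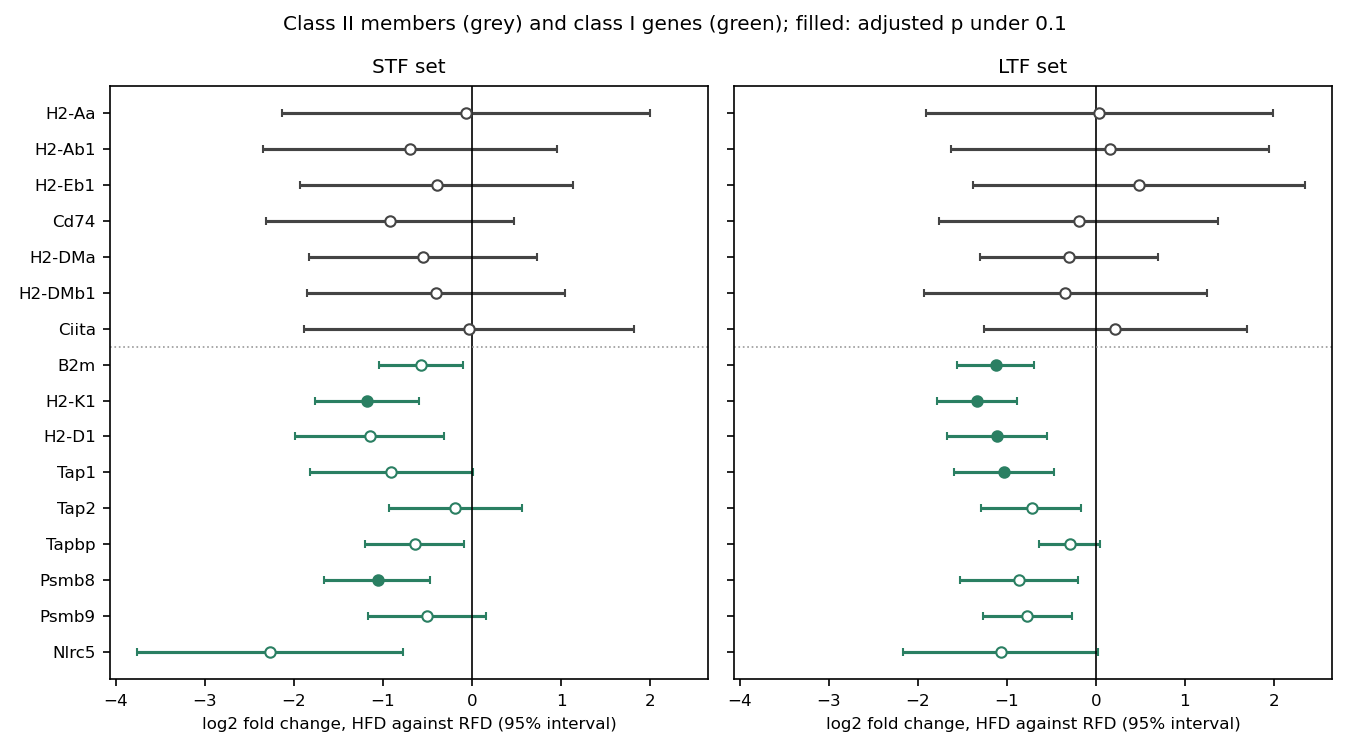
Log2 fold change of HFD against RFD (x axis) with its 95% interval from edgeR for the 7 class II members (grey) and 9 class I genes (green) in the STF and LTF sets, with filled points where the adjusted p is under 0.1. Every class II interval crosses 0, and the filled points are H2-K1 and Psmb8 in STF and B2m, H2-K1, H2-D1 and Tap1 in LTF.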

How the data were processed

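Per the labels and methods, amplified cDNA (Smart-seq2, Nextera XT) was sequenced in paired ends, and the authors trimmed reads with Cutadapt 1.15, aligned them with STAR 2.6.0 and quantified genes with RSEM on GRCm38. The deposited expected counts (8.79% of values above 0 not whole, rounded here) and the deposited TPM, which the authors scaled per transcript length, were used. FPKM tables and 24 columns of the tables that match no library listed here were not used. The authors' weighting of counts by estimated cell type shares was not repeated.

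Genes with more than 5 reads in at least 6 libraries were tested (14020) with edgeR 4.0.16 (R 4.3.3, TMM within each set, quasi-likelihood, robust). The interaction and the comparisons between sets used 1 fit of all 45 libraries. A call is an adjusted p under 0.1. Alternatives were DESeq2 1.42.0 tests and size factors, limma 3.58.1 on log2(TPM + 1) and log2(TPM + 0.1), no filter, terms for number range or marker lists, and libraries left out. Leaving out phagocyte-rich libraries was chosen after seeing the data. Correlations used numpy 2.4.6 and scipy 1.17.1 with permutation tests. The test was tried on simulated counts with 200 changed genes. The genes named were all members, every pathway gene past the threshold (1 gene of the interferon gamma list is not reported here), and the 10 genes most like Cd74 and H2-Aa; other pathway genes were picked as examples after their values were seen. The members and lists were chosen with earlier results of these data known.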

Additional observations from a re-analysis of the deposited data

How the results depend on the processing

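No class II member passed the threshold in any comparison under any alternative run (34 settings for each diet comparison, 5 for the interaction and 6 for each comparison between sets), so the alternatives bear on directions only, and the cause of each reversal was not tested. In the STF set, Ciita turned above 0 without the filter on low counts (0.02), without libraries under 500000 reads (0.01) and with phagocyte and B cell markers as covariates (0.18). With tuft markers as a covariate, H2-Aa (0.55), H2-Ab1 (0.09), H2-Eb1 (0.19), Ciita (0.32) and H2-DMb1 (0.15) did. In the LTF set, H2-Aa, H2-Ab1, H2-Eb1 and Ciita turned below 0 with limma on log2(TPM + 1) (-1.58, -1.40, -1.36 and -0.04) and on log2(TPM + 0.1) (-1.67, -1.44, -1.51 and -0.51), with the number range as a term (-1.17, -0.87, -0.59 and -0.35), with phagocyte and B cell markers as covariates (-1.75, -1.44, -1.33 and -0.68) and without the 2 phagocyte-rich libraries (-1.92, -1.54, -1.41 and -0.62). The first 3 of these genes did so with T cell markers as a covariate (-0.64, -0.50 and -0.18), H2-Ab1 and H2-Eb1 with DESeq2 (-1.36 and -1.17), and H2-Aa with enterocyte (-0.03) or tuft markers (-0.07). The interaction turned below 0 with the number range as a term for H2-Aa (-0.29), Ciita (-0.01), H2-DMa (-0.12) and H2-DMb1 (-0.27). LTF against STF on RFD turned below 0 for H2-Aa (-0.02) and H2-Eb1 (-0.06) without libraries under 500000 reads. No LTF library lay under that depth.

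With single mice left out, the STF log2 fold changes ranged from -0.77 to 0.27 (H2-Aa), -1.63 to -0.31 (H2-Ab1), -1.26 to 0.05 (H2-Eb1), -1.46 to -0.66 (Cd74), -0.55 to 0.13 (Ciita), -0.87 to -0.22 (H2-DMa) and -1.18 to -0.16 (H2-DMb1). The LTF values ranged from -1.84 to 0.25 (H2-Aa), -1.46 to 0.51 (H2-Ab1), -1.34 to 0.61 (H2-Eb1), -1.35 to -0.04 (Cd74), -0.69 to 0.44 (Ciita), -0.93 to -0.13 (H2-DMa) and -1.26 to -0.12 (H2-DMb1). Counts of all genes called ranged from 59 to 1996 (466 with every mouse) in STF and from 58 to 667 (111) in LTF with single mice left out, and from 0 to 1534 and 31 to 430 under the other alternatives. Of 70 correlation pairs, 11 passed by rho, 19 with log2(TPM + 1), where 5 T cell and 1 enterocyte pairs were among them, and 0 without the phagocyte-rich libraries. No paired analysis was possible because the diets within a set share no mouse number, and the number range as a term, given above, left 0 of 7 members called in both sets. Between the sets 9 RFD and 7 HFD numbers recur on different mice, whose deviations did not correlate in pairs (r of -0.339 to 0.0959 and -0.398 to 0.163). With that number as a replicate block, LTF against STF on HFD turned below 0 for H2-Ab1 (-0.02), H2-Eb1 (-0.58), Cd74 (-0.36) and H2-DMa (-0.22), and 3 and 751 genes were called on RFD and HFD in place of 204 and 810.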
